A study of Mus musculus with 6 samples.

Results

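Transcripts of autophagy and of the lysosome were described in mouse embryonic fibroblasts (MEFs) that lacked the histone variant H2AX and in wild-type MEFs. The group was drawn up as 44 genes by name, and 43 of them, of 19938 genes in all, had a probe set that the array annotation assigns to that gene alone. Optn, an autophagy receptor, was the gene without such a probe set and is not analysed here. RNA came from H2AX knockout MEFs on 3 arrays and from wild-type MEFs on 3 arrays, all of the Affymetrix Gene ST type, in which many short probes along a gene report its transcript. Both kinds of cells were derived from mouse embryos, were grown in the same serum-containing medium and received no treatment. The knockout is of the whole animal, and the sources used here do not name strain, embryos or passage. The study calls its replicates independent, but the sources used here do not say whether they came from separate embryos or cultures, so part of the array-to-array spread behind the p-values may be technical.

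Autophagy is the route by which a cell encloses part of its cytoplasm in a double membrane, the autophagosome, and delivers it to the lysosome. The ULK1 kinase complex starts the process, a lipid kinase complex built on Beclin 1 marks the membrane, and a conjugation system akin to that of ubiquitin couples ATG8-family proteins to lipid on the growing membrane. Receptors such as p62, encoded by Sqstm1, tie cargo to ATG8 proteins, and the lysosome then degrades the content with cathepsins and other acid hydrolases. TFEB and TFE3 are transcription factors that bind the promoters of many of these genes.

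In H2AX knockout MEFs, the members that differed most from wild-type were 3 lysosomal genes. The cathepsin gene Ctsl was 6.05-fold lower, Npc1, which exports cholesterol from lysosomes, was 2.37-fold lower and the cathepsin gene Ctsb was 2.01-fold lower. The next in size were autophagy genes that were higher, with Map1lc3a 1.60-fold, Atg3 1.59-fold and Atg14 1.59-fold above wild-type. They were followed by Ctsd, which was 1.48-fold lower, Ulk1, which was 1.47-fold higher, and Ctsz and Npc2, which were 1.44-fold and 1.41-fold lower. Of the 43 genes, 18 passed an adjusted p under 0.05 in limma, 8 as higher and 10 as lower in knockout cells, which left 25 that did not pass the test. Among all genes, 18.4% were higher and 15.0% were lower by the same test, 33.4% in either direction, so that the 41.9% of members that passed stood little above the background. In the one-way analysis of variance of the methods, which borrows no variance across genes and is called the unmoderated test here, 4 members were higher and 6 were lower, or 23.3% of members against 23.6% of all genes. Atg3, Atg14 and Ctsd were among the members that did not pass the unmoderated test. Without the 50% of genes that were lowest in mean, 43.9% of the 41 members left passed, below the 55.1% of all genes left. Past a fold-change of 2, all 3 genes were lower, namely Ctsl, Npc1 and Ctsb, against 3.18% of all genes that were lower and 5.30% in either direction. Differences are given on the log2 scale as knockout minus wild-type, and their median was -0.05 over the members and 0.02 over all genes.

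**Figure D1:**
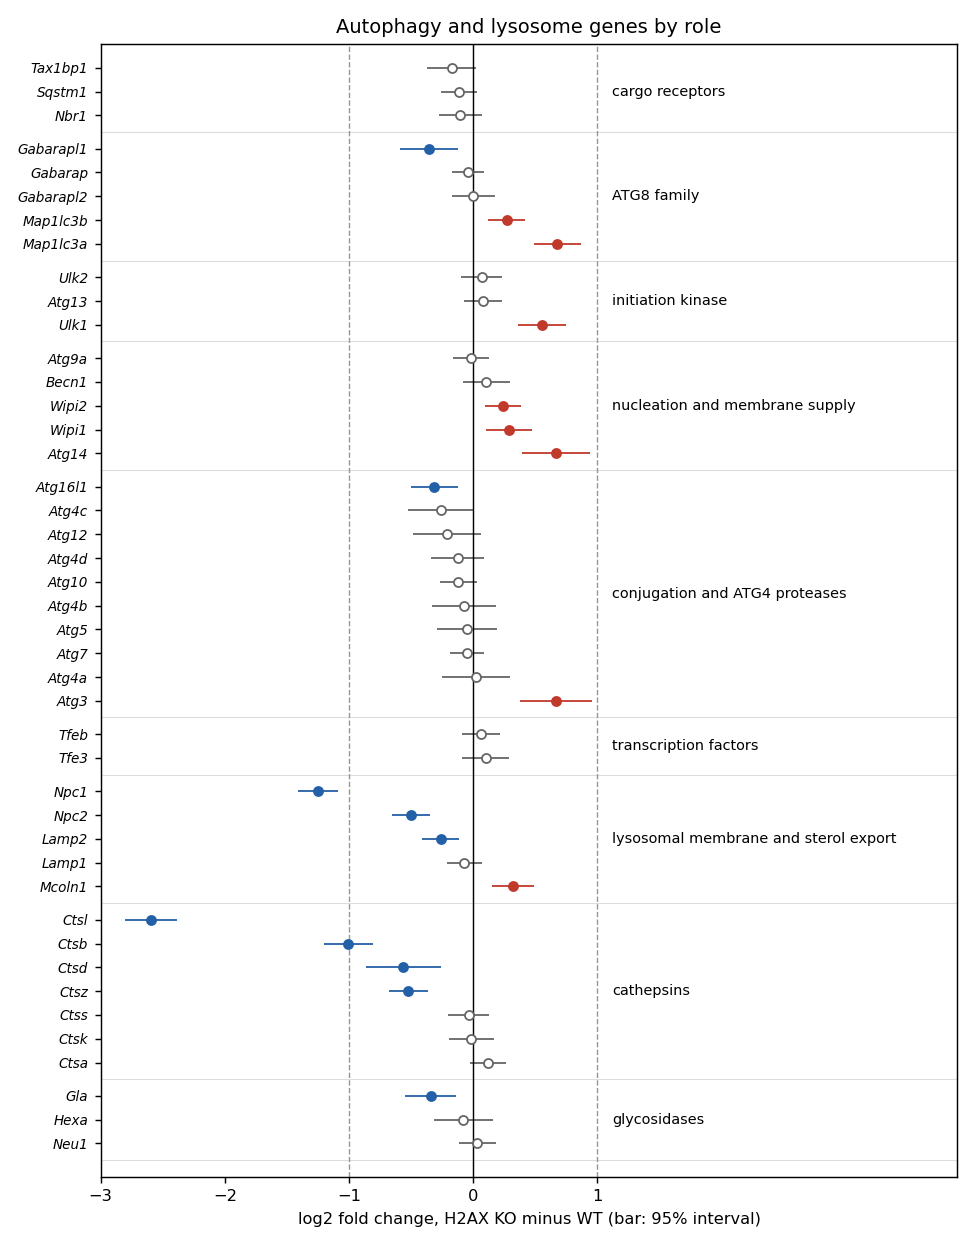
Log2 difference between H2AX knockout and wild-type MEFs, as knockout minus wild-type, on the x axis for the 43 genes, grouped by role, each a point with its 95% interval from limma as a bar. Red points passed an adjusted p under 0.05 as higher and blue points as lower in knockout cells, open points did not pass, and the 2-fold limits are dashed. The cathepsin genes reach from -2.60 for Ctsl to 0.12 for Ctsa, and the filled points of the initiation and nucleation groups all lie above 0.

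The lysosomal genes comprised 15 members, of which 8 were lower, 1 was higher and 6 did not pass. The 60.0% that passed stood beside 33.4% of all genes, 15.0% lower and 18.4% higher. Of the genes left without the 50% lowest in mean, 55.1% passed. The median log2 difference of the 15 members was -0.26. Cathepsins are the proteases of the lysosome. Ctsl, which encodes the cysteine protease cathepsin L, had log2 values of 10.22, 9.83 and 10.05 on the knockout arrays, against 12.61, 12.61 and 12.67 on the wild-type arrays. Each knockout array lay more than 2 log2 units below each wild-type array, and knockout replicate 2 was the lowest. The means were 10.03 ± 0.20 in knockout cells and 12.63 ± 0.03 in wild-type cells (SD, n = 3 each), a log2 difference of -2.60 (SE 0.09, limma adjusted p = 2.8e-08). By size of change, Ctsl ranked 158 among the 19938 genes.

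Ctsb encodes cathepsin B, another abundant cysteine protease. Its log2 values were 10.75, 10.57 and 10.77 on the knockout arrays, against 11.58, 11.67 and 11.86 on the wild-type arrays. The arrays of the genotypes did not overlap, and the log2 difference was -1.01 (SE 0.09, adjusted p = 1.5e-05). The gene sat at the edge of a fold-change of 2, with a log2 difference of -0.94 without knockout replicate 2, of -0.93 without wild-type replicate 3 and of -0.97 after median centring. Ctsd, the aspartic protease cathepsin D, and Ctsz, the carboxypeptidase cathepsin Z, fell by smaller amounts. Ctsd averaged 10.60 ± 0.07 in knockout cells and 11.17 ± 0.31 in wild-type cells (SD, n = 3 each), a log2 difference of -0.56 (limma adjusted p = 0.0089). Wild-type replicate 3, at 11.51, stood above the other wild-type arrays at 10.90 and 11.09, and without it the log2 difference of Ctsd was -0.39. Ctsd did not pass the unmoderated test (adjusted p = 0.11). Ctsz averaged 9.96 ± 0.07 in knockout cells and 10.48 ± 0.08 in wild-type cells (SD, n = 3 each), a log2 difference of -0.52 (limma adjusted p = 0.00025).

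The other cathepsin genes did not pass. Ctsa, which encodes the protective protein of the galactosidase and neuraminidase complex, had values of 10.88, 10.92 and 10.91 on the knockout arrays, against 10.70, 10.78 and 10.87 on the wild-type arrays. The knockout values were the higher ones without overlap, yet the log2 difference of 0.12 did not pass (adjusted p = 0.21, 95% interval -0.03 to 0.27). Ctsk, known from bone-resorbing osteoclasts, and Ctss, known from antigen-presenting cells, lay near the low end of the array scale. Ctsk averaged 5.83 in knockout and 5.84 in wild-type cells, and Ctss averaged 4.61 in knockout and 4.64 in wild-type cells. Low array values are compressed, so that a difference in these genes may be understated.

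**Figure D2:**
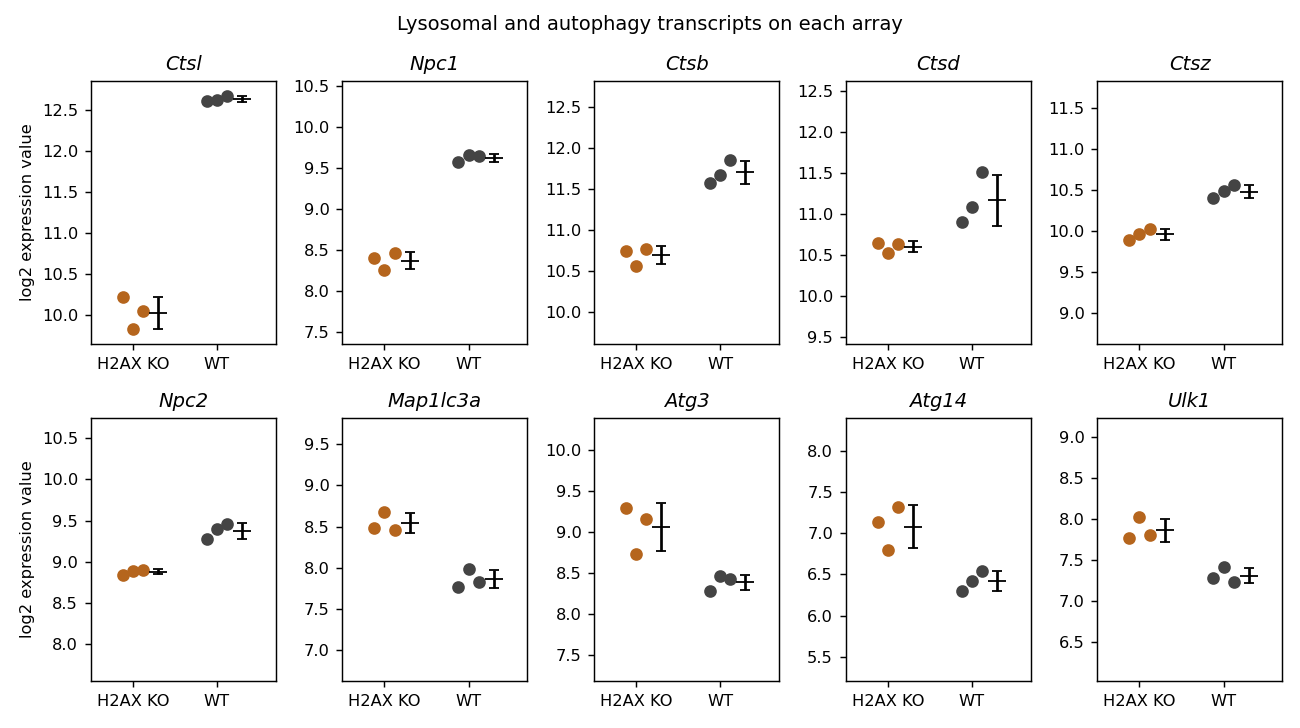
Log2 expression value on the y axis for 10 genes, with 1 point per array, H2AX knockout on the left and wild-type on the right, and the mean with its SD (n = 3) beside each set of points. Each panel spans the same height of log2 units around its own centre. In each panel the genotypes do not overlap, from the lower Ctsl at 10.03 in knockout and 12.63 in wild-type cells to the higher Ulk1 at 7.86 in knockout and 7.31 in wild-type cells.

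Npc1 and Npc2 work in sequence on cholesterol inside the lysosome, the soluble NPC2 handing it to the membrane protein NPC1 for export, and both transcripts fell. Npc1 had log2 values of 8.40, 8.26 and 8.46 on the knockout arrays, against 9.57, 9.65 and 9.64 on the wild-type arrays. The spread within either genotype was a small part of the gap between them, and the log2 difference was -1.25 (SE 0.07, limma adjusted p = 6.4e-07). Npc2 averaged 8.88 ± 0.03 in knockout cells and 9.38 ± 0.10 in wild-type cells (SD, n = 3 each), a log2 difference of -0.50 (adjusted p = 0.00032). Of the 2 major glycoproteins of the lysosomal membrane, Lamp2, whose isoform LAMP2A also serves chaperone-mediated autophagy, was lower and Lamp1 did not pass. Lamp2 had values of 10.78, 10.61 and 10.72 on the knockout arrays, against 10.93, 10.97 and 11.00 on the wild-type arrays, and a log2 difference of -0.26 (adjusted p = 0.012). Lamp1 had values of 11.44, 11.36 and 11.42 on the knockout arrays, against 11.41, 11.52 and 11.49 on the wild-type arrays. These overlapped, with a log2 difference of -0.07 (adjusted p = 0.45, 95% interval -0.21 to 0.07).

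Mcoln1, which encodes the calcium channel TRPML1 of the lysosomal membrane, was the lysosomal member that rose. Its values were 9.84, 10.03 and 9.95 on the knockout arrays, against 9.52, 9.66 and 9.68 on the wild-type arrays, without overlap. The log2 difference was 0.32 (SE 0.08, limma adjusted p = 0.0081, and adjusted p = 0.054 in the unmoderated test). The glycosidases remove sugars from glycolipids and glycoproteins. Gla, α-galactosidase A, had values of 7.87, 7.54 and 7.77 on the knockout arrays, against 7.96, 8.12 and 8.12 on the wild-type arrays, and a log2 difference of -0.34 (adjusted p = 0.017). That call was lost without wild-type replicate 2 (adjusted p = 0.071), without wild-type replicate 3 (adjusted p = 0.063) and in the unmoderated test (adjusted p = 0.11). Neu1, a sialidase, had values of 6.67, 6.72 and 6.64 on the knockout arrays, against 6.61, 6.58 and 6.73 on the wild-type arrays, which overlapped (adjusted p = 0.76). Hexa, a subunit of β-hexosaminidase, had a log2 difference of -0.08 (adjusted p = 0.63).

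The transcripts of the transcription factors did not pass. Tfeb had values of 7.22, 7.37 and 7.24 on the knockout arrays, against 7.21, 7.16 and 7.27 on the wild-type arrays, a log2 difference of 0.07 (adjusted p = 0.54, 95% interval -0.09 to 0.22). Tfe3 had values of 9.22, 9.48 and 9.25 on the knockout arrays, against 9.13, 9.24 and 9.27 on the wild-type arrays, a log2 difference of 0.10 (adjusted p = 0.43, 95% interval -0.09 to 0.29). Both genes overlapped between genotypes. These factors are controlled largely by phosphorylation and entry into the nucleus, which RNA arrays do not measure.

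TFEB and TFE3 bind a palindromic E-box, CACGTG, most often within the longer sequence GTCACGTG of the so-called CLEAR element. RefSeq promoter windows of assembly GRCm38.p6, from 250 bases before to 50 bases after a start site, were at hand for 37 of the 43 genes and for 27025 genes in all. Npc1, Ctsb, Map1lc3a, Atg16l1, Becn1 and Atg12 had no window and were not searched. Both strands were searched for CACGTG and for GTCACGTG, the second of which contains the first, and a gene with several windows was counted once. CACGTG was present for 10 of the 37 members, or 27.0%, against 8.09% of all genes, and GTCACGTG for 8 members, or 21.6%, against 2.55% of all genes. By direction, CACGTG occurred in 3 of 7 higher members (Atg14, Atg3 and Mcoln1), in 3 of 7 lower members (Ctsd, Ctsl and Gla) and in 4 of 23 members that did not pass (Atg5, Atg7, Lamp1 and Ctsa). Members with a match thus lay on both sides of 0. The core of the antioxidant response element bound by NRF2, TGACNNNGC, was searched in the same way, since p62 and NRF2 act on each other, and it occurred for 7 of the 37 members, or 18.9%, against 3781 of the 27025 genes. A match is a description of the letters and not a site. Windows of 2 lower genes, of 2 higher genes and of Lamp1, which did not pass, are shown 5′ to 3′ to let the matches be compared, with CACGTG, or GTCACGTG where it is complete, on either strand in capitals.
Ctsl, chr13:64370471-64370770, minus strand: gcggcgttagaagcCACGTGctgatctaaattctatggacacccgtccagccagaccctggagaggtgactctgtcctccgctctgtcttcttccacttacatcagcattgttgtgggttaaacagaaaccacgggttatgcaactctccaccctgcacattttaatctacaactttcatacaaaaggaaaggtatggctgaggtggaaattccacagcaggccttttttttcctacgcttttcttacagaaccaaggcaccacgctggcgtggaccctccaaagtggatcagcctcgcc
Ctsd, chr7:142387778-142388077, minus strand: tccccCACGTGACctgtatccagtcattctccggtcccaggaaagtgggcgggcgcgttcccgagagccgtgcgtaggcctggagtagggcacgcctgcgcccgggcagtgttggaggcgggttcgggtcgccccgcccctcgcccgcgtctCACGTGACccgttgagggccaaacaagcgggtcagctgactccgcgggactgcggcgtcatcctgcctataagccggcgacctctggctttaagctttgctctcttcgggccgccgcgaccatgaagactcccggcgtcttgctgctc
Atg3, chr16:45158579-45158878, plus strand: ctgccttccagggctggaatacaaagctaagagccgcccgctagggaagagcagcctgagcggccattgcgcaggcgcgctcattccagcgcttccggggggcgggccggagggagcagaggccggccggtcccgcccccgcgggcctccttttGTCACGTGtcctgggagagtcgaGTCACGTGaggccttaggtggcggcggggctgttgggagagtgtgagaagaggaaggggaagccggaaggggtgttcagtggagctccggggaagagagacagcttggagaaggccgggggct
Mcoln1, chr8:3500269-3500568, plus strand: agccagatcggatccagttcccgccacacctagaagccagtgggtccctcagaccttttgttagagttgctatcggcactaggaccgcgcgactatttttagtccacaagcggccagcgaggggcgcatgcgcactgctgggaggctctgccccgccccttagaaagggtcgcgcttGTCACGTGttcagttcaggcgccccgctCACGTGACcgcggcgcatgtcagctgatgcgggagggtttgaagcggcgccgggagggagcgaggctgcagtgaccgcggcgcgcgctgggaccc
Lamp1, chr8:13158911-13159210, plus strand: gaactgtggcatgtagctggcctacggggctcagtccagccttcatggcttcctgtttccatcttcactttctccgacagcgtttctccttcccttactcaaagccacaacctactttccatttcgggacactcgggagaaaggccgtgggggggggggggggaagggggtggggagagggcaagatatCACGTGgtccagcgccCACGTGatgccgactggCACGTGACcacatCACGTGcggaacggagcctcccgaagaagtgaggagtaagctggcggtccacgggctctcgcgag
Counted from the start site, the single match of Ctsl began at -236, those of Ctsd at -245 and -98, those of Atg3 at -96 and -73 and those of Mcoln1 at -73 and -45. Lamp1 held 4 matches between -61 and -15.

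The 26 measured genes of autophagy proper comprised 7 that were higher, 2 that were lower and 17 that did not pass. The 34.6% that passed stood beside 33.4% of all genes, 18.4% higher and 15.0% lower. All 26 stayed when the 50% of genes lowest in mean were removed, and of the genes left 55.1% passed. The median log2 difference of the 26 autophagy genes was -0.03. None passed a fold-change of 2, with log2 differences between -0.35 and 0.68. At initiation, Ulk1, the kinase that starts autophagy when nutrients are short, had values of 7.76, 8.02 and 7.80 on the knockout arrays, against 7.28, 7.41 and 7.24 on the wild-type arrays. Every knockout array lay above every wild-type array, and the log2 difference was 0.55 (SE 0.08, limma adjusted p = 0.00066). Its paralog Ulk2 and its partner Atg13 had log2 differences of 0.07 (adjusted p = 0.55) and 0.08 (adjusted p = 0.46).

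At nucleation, 3 of 5 genes were higher and none was lower, where 18.4% of all genes were higher and 15.0% were lower. Atg14, the subunit that directs the Beclin 1 lipid kinase complex to autophagy, had values of 7.13, 6.80 and 7.31 on the knockout arrays, against 6.30, 6.42 and 6.54 on the wild-type arrays. The knockout arrays were spread over a wider range than the wild-type arrays but did not reach them, and the log2 difference was 0.67 (SE 0.12, limma adjusted p = 0.0021, and adjusted p = 0.062 in the unmoderated test). Wipi1 and Wipi2, which read the lipid that this complex makes, rose by 0.29 (adjusted p = 0.023) and 0.24 (adjusted p = 0.017). The call of Wipi1 was lost without knockout replicate 1 (adjusted p = 0.058) or 3 (adjusted p = 0.073), without wild-type replicate 1 (adjusted p = 0.069) or 3 (adjusted p = 0.067) and in the unmoderated test (adjusted p = 0.11). That of Wipi2 was lost without knockout replicate 3 (adjusted p = 0.066) or wild-type replicate 1 (adjusted p = 0.0504). Becn1, which encodes Beclin 1, had a log2 difference of 0.11 (adjusted p = 0.40). Atg9a, which encodes the transmembrane protein of the vesicles that seed the membrane, had values of 7.96, 8.10 and 8.04 on the knockout arrays, against 8.01, 8.08 and 8.07 on the wild-type arrays (adjusted p = 0.89).

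In the ATG8 family, whose proteins are attached to the autophagosome membrane, 2 genes of the LC3 branch were higher. In the GABARAP branch, 1 gene was lower and 2 did not pass. Of all genes, 18.4% were higher and 15.0% were lower. Map1lc3a had values of 8.48, 8.68 and 8.46 on the knockout arrays, against 7.77, 7.99 and 7.83 on the wild-type arrays. The gap between the genotypes exceeded the range within either, and the log2 difference was 0.68 (SE 0.08, limma adjusted p = 0.00017). Map1lc3b, which encodes the LC3B protein commonly used to count autophagosomes, had values of 10.30, 10.23 and 10.31 on the knockout arrays, against 9.92, 10.02 and 10.09 on the wild-type arrays. Its log2 difference was 0.27 (adjusted p = 0.012), and without knockout replicate 3 the call was lost (adjusted p = 0.054). A second probe set assigned to Map1lc3b gave 0.33. Gabarapl1 had values of 10.42, 10.21 and 10.37 on the knockout arrays, against 10.48, 10.69 and 10.89 on the wild-type arrays. The genotypes came close without overlapping, and the log2 difference was -0.35 (adjusted p = 0.026). That call was lost without knockout replicate 2 (adjusted p = 0.063) or 3 (adjusted p = 0.060), without wild-type replicate 2 (adjusted p = 0.077) or 3 (adjusted p = 0.086), in the unmoderated test (adjusted p = 0.15) and after median centring (adjusted p = 0.055). Gabarap had a log2 difference of -0.04 (adjusted p = 0.65) and Gabarapl2 of 0.00 (adjusted p = 0.99). Gabarapl2 had a second probe set, low on the array scale, with a log2 difference of 0.52 that did not pass (adjusted p = 0.15 over all probe sets).

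The conjugation machinery held 10 genes, and 8 of them did not pass, with Atg3 higher and Atg16l1 lower. The 20.0% that passed stood beside 33.4% of all genes. Atg3, the E2-like enzyme that couples ATG8 proteins to lipid, had values of 9.29, 8.73 and 9.15 on the knockout arrays, against 8.29, 8.46 and 8.42 on the wild-type arrays. Knockout replicate 2 stood nearest to wild-type cells, and the log2 difference was 0.67 (SE 0.13, limma adjusted p = 0.0027, and adjusted p = 0.071 in the unmoderated test). Atg16l1, which places that reaction on the membrane, had values of 7.61, 7.41 and 7.53 on the knockout arrays, against 7.68, 7.91 and 7.91 on the wild-type arrays. It was lower, with a log2 difference of -0.31 (adjusted p = 0.017), a call lost without knockout replicate 3 (adjusted p = 0.052), without wild-type replicate 2 (adjusted p = 0.076) or 3 (adjusted p = 0.065) and in the unmoderated test (adjusted p = 0.098). The partners of Atg3 and Atg16l1 did not pass. The E1-like Atg7 had a log2 difference of -0.05 (adjusted p = 0.62), the E2-like Atg10 of -0.12 (adjusted p = 0.21), Atg5 of -0.05 (adjusted p = 0.79) and Atg12 of -0.21 (adjusted p = 0.23). The ATG4 proteases, which trim ATG8 proteins and release them again, had log2 differences of 0.02 for Atg4a, -0.08 for Atg4b, -0.26 for Atg4c and -0.13 for Atg4d. None of the 4 passed with all arrays, while Atg4c passed as lower without wild-type replicate 1 (adjusted p = 0.045) and Atg4d without knockout replicate 2 (adjusted p = 0.033).

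None of the 3 measured cargo receptor genes passed. Sqstm1, whose product p62 links ubiquitinated cargo to ATG8 proteins and also binds KEAP1, the inhibitor of NRF2, had values of 11.30, 11.44 and 11.35 on the knockout arrays, against 11.45, 11.45 and 11.53 on the wild-type arrays. The knockout arrays all lay below the wild-type arrays, with knockout replicate 2 just under wild-type replicates 1 and 2, and the log2 difference of -0.12 did not pass (limma adjusted p = 0.23, 95% interval -0.26 to 0.03). Tax1bp1 had values of 9.25, 9.01 and 9.26 on the knockout arrays, against 9.23, 9.39 and 9.42 on the wild-type arrays, which overlapped (log2 difference -0.17, adjusted p = 0.17). Nbr1 had a log2 difference of -0.10 (adjusted p = 0.36).

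Counted by arrays that did not overlap between genotypes, 9 members lay above and 13 below wild-type cells, 22 in all, where 25.3% of all genes were higher and 19.5% were lower in that sense, 44.8% in all. The members shared a pattern among the arrays of a genotype, which was compared with all genes and not with genes of like mean. Of the 43 members, 41 were left when the 50% of genes lowest in mean were removed. Wild-type replicate 1 gave the lowest wild-type value for 35 of the 43 genes (81.4%), against 47.2% of all genes, and wild-type replicate 3 gave the highest for 25 (58.1%), against 36.3% of all genes. Among knockout arrays, replicate 2 was the lowest for 24 members (55.8%), against 41.1% of all genes. The same array was the highest for 16 members (37.2%), against 37.4% of all genes. Without wild-type replicate 1, 6 members were higher and 11 were lower. Without knockout replicate 2, 8 were higher and 10 were lower, and without knockout replicate 3, 5 were higher and 8 were lower. The shares that passed were 39.5% of members and 30.0% of all genes without wild-type replicate 1. They were 41.9% and 34.2% without knockout replicate 2, and 30.2% and 26.8% without knockout replicate 3.

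**Figure D3:**
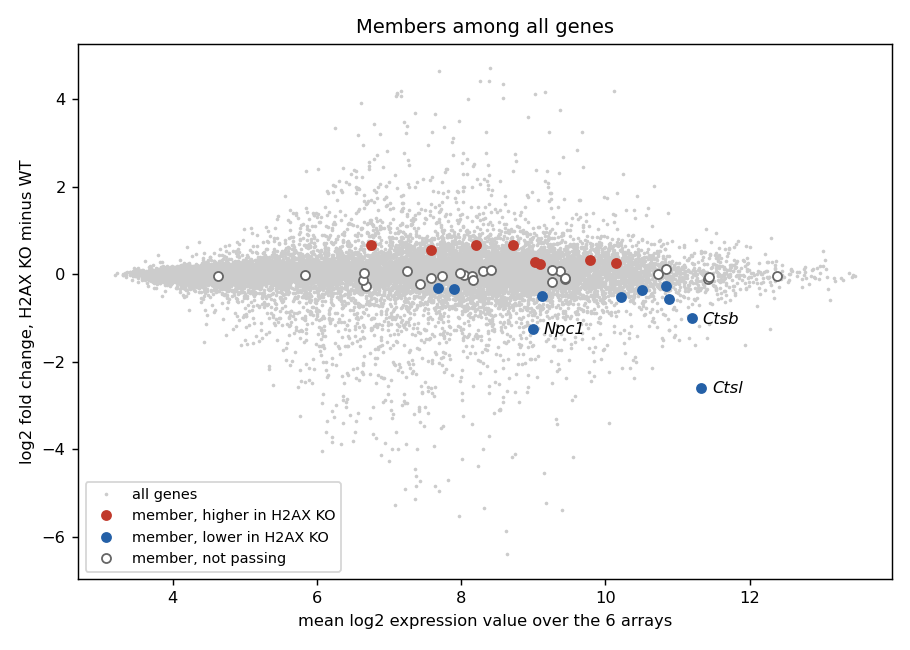
Mean log2 expression value over the 6 arrays on the x axis and log2 difference of knockout minus wild-type cells on the y axis, with a grey point per gene for all 19938 genes. The 43 autophagy and lysosome genes are drawn over them, red where higher, blue where lower at an adjusted p under 0.05 and open where not passing. Ctsl at -2.60, Npc1 at -1.25 and Ctsb at -1.01 lie below the other 40 members.

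Other genes of the pathway were examined as 5 lists. By the same test, 33.4% of all genes passed, and 55.1% of those left without the 50% lowest in mean. The share that passed was 77.5% of further lysosomal enzymes and membrane proteins, 42.1% of V-ATPase genes and 53.6% of other autophagy machinery. It was 45.5% of genes of mTORC1 and TFEB control and 57.9% of genes of mitophagy and ER-phagy. Of 40 further lysosomal enzymes and membrane proteins, 23 were lower and 8 higher, which left 9 that did not pass, and the list had a median log2 difference of -0.23 where all genes had 0.02. The largest falls were again in cathepsins. Ctsh, an aminopeptidase, had values of 5.20, 5.09 and 5.09 on the knockout arrays, against 9.05, 9.04 and 9.25 on the wild-type arrays, a log2 difference of -3.98 (adjusted p = 6.3e-10). Ctsc, which activates serine proteases of leukocytes, had a log2 difference of -2.06 (adjusted p = 8.5e-07). The knockout values of both genes were low on the array scale, so that the sizes may be understated. In the other direction, Gm2a, the activator protein with which Hexa degrades a ganglioside, had values of 9.38, 9.11 and 9.32 on the knockout arrays, against 7.72, 7.83 and 7.84 on the wild-type arrays, and rose by 1.47 (adjusted p = 5.7e-07), and the cathepsin gene Ctsf rose by 0.86 (adjusted p = 3.6e-05). Of 7 genes of this list past a fold-change of 2, 6 were lower, where 5.3% of all genes were past it and 3.18% were lower.

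The V-ATPase is the proton pump that acidifies lysosomes, and of 19 measured subunits and accessory proteins 7 were lower and 1 higher, with 11 not passing and a median log2 difference of -0.14. The accessory protein gene Atp6ap2 fell by 0.85 (adjusted p = 0.00050) and Atp6v1d, of the catalytic sector, by 0.80 (adjusted p = 0.00075), while Atp6v0e2 rose by 0.75 (adjusted p = 0.00056). Of 28 other genes of the autophagy machinery, 9 were lower and 6 higher at a median of -0.05. The lower ones were led by Snap29 (-0.69, adjusted p = 0.00027) and Vamp8 (-0.66, adjusted p = 5.8e-05), SNARE proteins of the fusion of autophagosomes with lysosomes. The higher ones were led by Wdr45 (0.54, adjusted p = 0.00015), a relative of the WIPI proteins, and the lipid transfer protein gene Atg2a (0.50, adjusted p = 0.0013). Of 33 genes of mTORC1 and TFEB control, 10 were higher and 5 lower at a median of 0.06. Mitf, a close relative of Tfeb and Tfe3, had values of 5.91, 5.56 and 5.87 on the knockout arrays, against 7.73, 7.84 and 7.92 on the wild-type arrays, a log2 difference of -2.05 (SE 0.10, adjusted p = 2.1e-07). Deptor, an mTOR inhibitor, fell by 0.39 (adjusted p = 0.0051). Rragb, a Rag GTPase that brings mTORC1 to the lysosome, rose by 1.03 (adjusted p = 5.8e-05), and Sesn1, a sestrin that restrains mTORC1, by 1.00 (adjusted p = 7.1e-06). Without wild-type replicate 1, 6 genes of this list were higher, and 3 were lower without knockout replicate 2 or wild-type replicate 2 and with the replicate number as a block. Of 19 receptors and regulators of mitophagy and ER-phagy, 6 were higher and 5 lower. Usp30, a deubiquitinase that opposes mitophagy, rose by 0.52 (adjusted p = 0.00011) and Bcl2l13 by 0.45 (adjusted p = 0.0011), while the mitophagy receptor gene Bnip3 fell by 0.48 (adjusted p = 0.015) and the ER-phagy receptor gene Retreg1 by 0.37 (adjusted p = 0.0045). The call of Bnip3 was lost without wild-type replicate 2 (adjusted p = 0.056) and in the unmoderated test (adjusted p = 0.14), and that of Deptor in the unmoderated test (adjusted p = 0.059). The count of lower genes in this list was 3 without knockout replicate 3 or wild-type replicate 2, and 2 without wild-type replicate 3.

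**Figure D4:**
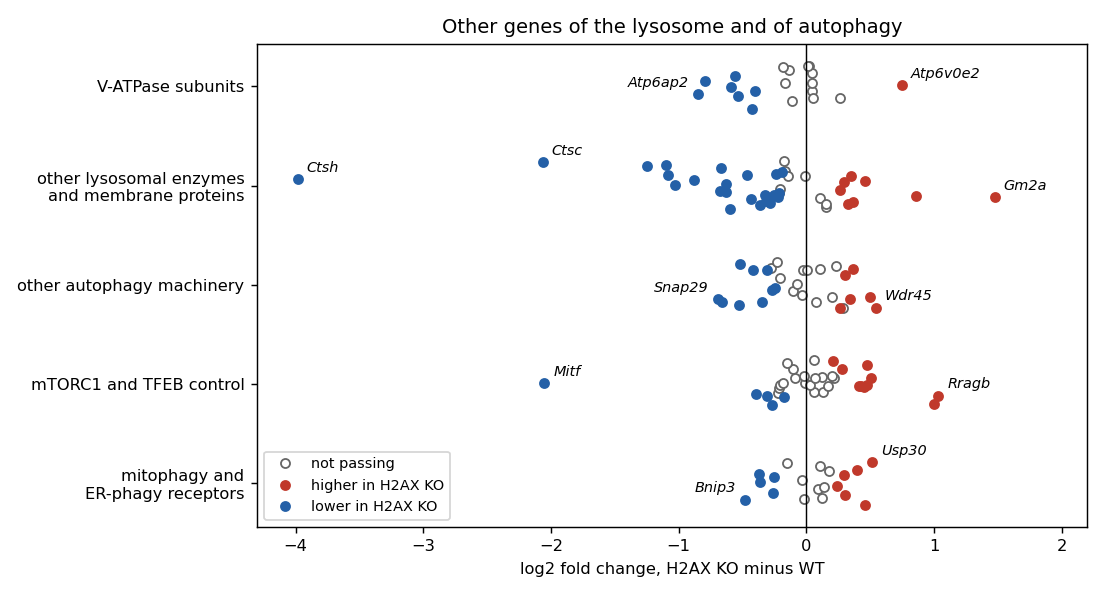
Log2 difference between H2AX knockout and wild-type MEFs, as knockout minus wild-type, on the x axis for each measured gene of 5 further lists, with 1 point per gene, spread vertically for legibility. Filled points had an adjusted p under 0.05, red as higher and blue as lower in knockout cells, and open points did not. The 23 lower lysosomal genes reach to -3.98 for Ctsh, and Mitf at -2.05 stands apart in the list of mTORC1 and TFEB control.

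Beside these results, the targeted gene H2ax had log2 values between 7.67 and 7.77 on the knockout arrays and between 8.96 and 9.18 on the wild-type arrays, a log2 difference of -1.34 (adjusted p = 5.8e-07). Of 12 fibroblast markers, 10 passed, 5 in each direction, or 83.3% against 33.4% of all genes. Of the genes left without the 50% lowest in mean, 55.1% passed. Vim, at 13.14 in knockout and 13.21 in wild-type cells, and Col1a1, at 12.01 in knockout and 11.41 in wild-type cells, were high on all arrays. Other fibroblast markers differed widely, with Thy1 at 10.60 in knockout and 6.57 in wild-type cells, Pdgfrb at 10.50 in knockout and 8.80 in wild-type cells, Dcn at 9.57 in knockout and 11.72 in wild-type cells and Fap at 4.45 in knockout and 7.02 in wild-type cells. The cells thus differed in fibroblast markers too, whose part in the results on autophagy and lysosome genes was not tested. Macrophages and osteoclasts are rich in cathepsins, and of 17 of their markers 1 was higher and 1 was lower, 11.8% against 33.4% of all genes. Most of these markers were low on the array scale, and their share was not compared with that of genes of like mean. Cd68 was higher, at 6.90 in knockout and 6.61 in wild-type cells (limma adjusted p = 0.025). Cd14 was lower, at 6.39 in knockout and 6.78 in wild-type cells (limma adjusted p = 0.0042). The mean log2 value of these 17 markers was 5.21 to 5.28 on the knockout arrays and 5.19 to 5.26 on the wild-type arrays. Among those that did not pass, Ptprc (5.20 in knockout and 5.22 in wild-type cells) and Adgre1 (4.30 in knockout and 4.28 in wild-type cells) were low on the array scale. Any part of such cells in the results was not tested. Of 12 epithelial, endothelial and neural markers, 2 were higher and 1 was lower, or 25.0% in all, with Map2 at 7.79 in knockout and 6.07 in wild-type cells. The Y-linked genes Uty and Kdm5d were also lower in knockout cells, with log2 differences of -3.73 and -2.88, so that the cells differed in more than H2ax and these differences and the genotype cannot be told apart. In bulk RNA, fewer cells with a transcript and less of it per cell cannot be told apart either.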

How the data were processed

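RNA of H2AX knockout and wild-type MEFs was measured on 6 Affymetrix arrays, 3 of each genotype as the submitters' labels give it. The authors processed the scans in Affymetrix Expression Console and then normalized them in Partek (version 6.6), by a method that is not given in the sources used here. What they deposited is 1 log2 expression value for each of 35556 probe sets, and array medians lay between 6.06 and 6.12, which hides any change in total RNA per cell. Probe sets were named by the annotation of version 1.0 of the Mouse Gene ST array, which their identifiers match, whereas the methods give version 2.0. Only the 21789 probe sets with 1 gene symbol were used, after an update of symbols from RefSeq (GRCm38.p6), and 1621 with several symbols and 12146 without an entry were not. The probe set with the highest mean stood for a gene, and 3 members had several probe sets.

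limma (version 3.58.1, in R version 4.3.3) compared the genotypes over 19938 genes by lmFit and eBayes, without covariates or a filter on low values, and p-values were adjusted by Benjamini-Hochberg over all of them. Higher, lower, rose and fell stand for an adjusted p under 0.05. The fit was first tested on simulated data with independent values and few changed genes. That setting differs from these arrays, so it checks the working of the fit and not the calls made here. The members and lists were chosen with earlier results of these data known, so that a list's counts are descriptions and no set was tested. The text names all members, H2ax, the 2 largest rises and the 2 largest falls of each of 5 related lists, and a few markers and Y-linked genes picked after their values were seen. Results were recomputed under 13 alternatives, which were a block for the replicate number, 6 fits that each left out 1 array, the unmoderated one-way analysis of variance of the methods, a trended and robust prior, quantile normalization, median centring, removal of the 50% of genes lowest in mean, and averaged probe sets. Among the members, Ctsk and Ctss were lost to the removal of the lowest genes and have no value there. Precision is limited by the number of arrays, and 3 against 3 arrays cannot give an exact permutation p below 0.10. Within a genotype, at most 0.087% of probe sets had identical values on a pair of arrays.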

Additional observations from a re-analysis of the deposited data

How the results depend on the processing

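Of the 18 members that passed, 8 kept their direction and an adjusted p under 0.05 under all 13 alternatives, namely Map1lc3a and Ulk1 as higher and Ctsl, Ctsb, Ctsz, Npc1, Npc2 and Lamp2 as lower. In the unmoderated analysis of variance, 4 members were higher and 6 were lower, 6 genes of mTORC1 and TFEB control were higher and 3 lower, and 2 receptors of mitophagy and ER-phagy were lower. Its adjustment gave 2544 higher and 2165 lower genes in all, against 3676 and 2990. After median centring, the median log2 difference was -0.0089 over the members and 0.0586 over all genes. Without centring, these medians were -0.0472 and 0.0203, so that members and all genes moved up together. After it, 3 genes of mTORC1 and TFEB control were lower. After quantile normalization, 2 V-ATPase subunits were higher. Same-numbered arrays of the genotypes deviated from their group means with correlations of -0.29, -0.24 and 0.08. For arrays of unlike number, the correlations ran from -0.165 to 0.32. Deviations from a mean of so few arrays are bound to one another, so these values cannot decide whether arrays were handled in pairs. With the replicate number as a block, 8 members were higher and 10 were lower, 3 genes of mTORC1 and TFEB control were lower, and 3170 genes in all were higher and 2640 lower. Leaving out 1 array gave 5 to 8 higher and 7 to 11 lower members and a median of the members between -0.0601 and -0.0366. It gave 1 to 2 higher V-ATPase subunits, with 2 without wild-type replicate 3. It also gave 6 to 9 higher and 3 to 5 lower genes of mTORC1 and TFEB control and 2 to 5 lower receptors of mitophagy and ER-phagy. The share of all genes that passed in these fits ran from 26.8% to 34.2%. The log2 differences of Atg9a, Ctsk and Ctss, which did not pass, turned to 0.022, 0.022 and 0.0031 after median centring, and that of Ctsk to 0.011 after quantile normalization. Without 1 array, further members that did not pass changed sign, with ranges of -0.042 to 0.059 for Gabarapl2, -0.059 to 0.19 for Atg4a, -0.21 to 0.042 for Atg4b, -0.155 to 0.080 for Atg5, -0.20 to 0.0036 for Hexa, -0.048 to 0.020 for Atg9a, -0.095 to 0.039 for Ctsk and -0.081 to 0.017 for Ctss. The causes of these shifts were not tested.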
